A study of Drosophila melanogaster with 6 samples.

Results

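The Enhancer of split complex is a cluster of Notch target genes on chromosome 3R of Drosophila melanogaster. Its members were taken as the genes of the authors' deposited table whose name begins with E(spl)m, and 10 of the 7762 genes in the table met that rule. All 10 expected names had a row. They are 6 genes of basic helix-loop-helix (bHLH) repressors (mdelta, mgamma, mbeta, m3, m7 and m8) and 4 genes of the Bearded family (malpha, m2, m4 and m6). E(spl)m5-HLH, a further bHLH gene of the complex, was not analysed here.

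The samples were 3 wing imaginal disc samples and 3 haltere imaginal disc samples, which the series describes as independent biological replicates. All came from wild-type Canton S larvae at the wandering stage of L3, the last larval instar, with no transgene or treatment in either group. Imaginal discs are larval epithelia that form adult structures, here the wing, and the haltere that flies use for balance behind it. How many larvae were pooled per sample is not given in the sources used here.

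Notch is a receptor that is cleaved when it binds Delta or Serrate on a neighbouring cell, and its intracellular part then joins Suppressor of Hairless to switch on target genes. The bHLH proteins of the complex bind DNA and recruit the corepressor Groucho to hold down proneural genes, which keeps most cells of a proneural cluster from becoming sense organ precursors. Bearded family proteins are small, and several of them inhibit Neuralized, a ubiquitin ligase that Delta needs for signalling. In the wing disc Notch also acts at the dorsal-ventral boundary, along the veins and in the adult muscle precursors that underlie the notum.

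The values come from a comparison of the discs that the authors made with edgeR. It gives 1 log2 fold change, mean expression, p-value and adjusted p-value (FDR) per gene and no value for a single sample, so the spread between replicates is seen only through the p-values and the depth of each library is unknown. The table does not say which tissue is the numerator. Ubx, the homeotic gene of the haltere, stood at -5.22 in the authors' deposited table (edgeR FDR = 2.98e-59), so positive values are read as higher in the wing disc. That reading is an assumption, so Ubx does not test the labels. At an FDR under 0.05, 1.34% of all genes in the authors' deposited table were called, 0.464% as higher and 0.876% as lower in the wing disc. All 9 genes listed as marks of disc identity had a row, with mean expression from 3.88 to 9.60 log2 CPM (read counts relative to library size, on a log scale) in the authors' deposited table. Of these, Ubx and Antp, the homeotic gene of the segment that bears the wing, were called, and Antp was at 2.08 (authors' deposited table, edgeR FDR = 3.56e-10). Genes of other larval tissues were also present. Summed levels estimated from the authors' deposited table were 52.1 CPM in wing discs and 1037 CPM in haltere discs for 6 fat body genes, and 11.1 CPM in wing discs and 160 CPM in haltere discs for 4 salivary gland genes. Of those genes, 5 from the fat body and all 4 from the salivary gland were called as lower in the wing disc, and their part in the results below was not tested.

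Of the 10 members 1 was called as different between the discs, where the background over all genes was 1.34%. E(spl)m6-BFM was higher in the wing disc, with a log2 fold change of 2.18, a 4.53-fold difference (authors' deposited table, edgeR FDR = 6.86e-10). None of the 6 bHLH members was called by edgeR in the authors' deposited table, and 1 of them, mgamma, had an unadjusted p-value under 0.05. Of all 10 members, 7 lay within 0.5 of 0 on the log2 scale, against 89.9% of all genes in the authors' deposited table. The median over the members was a log2 fold change of -0.12, beside 0.00047 over all genes, and the median absolute change was 0.21, beside 0.16 over all genes. In sum the members took an estimated 728 CPM in wing discs and 725 CPM in haltere discs, computed from the authors' deposited table. The 3 most expressed members, mbeta, m3 and m2, held 69.9% of the mean total, so this sum says little about the others.

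**Figure D1:**
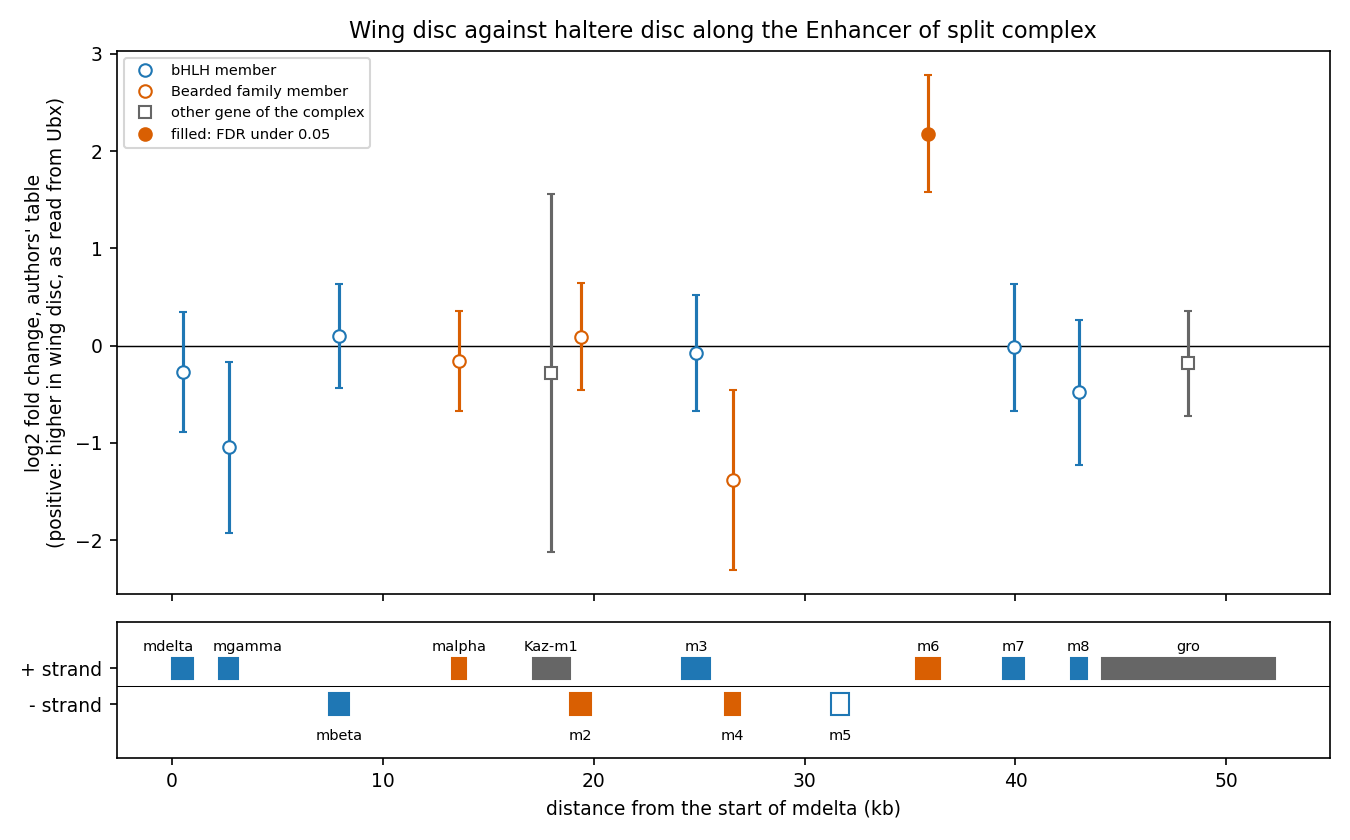
Log2 fold change of each gene of the complex (upper panel, wing disc over haltere disc as read from Ubx) against its distance in kb along the chromosome, with the genes drawn to scale by strand (lower panel). Bars are 95% intervals implied by the authors' p-values, and an open box marks m5, which was not analysed here. E(spl)m6-BFM, the filled point at 2.18, stands above the interval of every other gene drawn.

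The estimated levels used here were derived from the deposited mean and fold change of each gene, with both tissues weighted equally. They are approximate, carry no error of their own and add nothing to the test of a difference. To set genes side by side they were divided by the exon length of the gene in the Ensembl annotation, as CPM per kb. The intervals used here are rough 95% intervals of the log2 fold change, from the standard error that the authors' p-value would imply under a normal test.

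In the Ensembl annotation (build BDGP6.54, dm6 coordinates) the members lie within 43.4 kb, from mdelta at chr3R:25997621-25998633 to m8 at chr3R:26040240-26041008. Each of the 10 is annotated as a single exon with no intron, 7 on the plus strand and 3 on the minus strand, and none overlaps another annotated gene. The gene of the corepressor Groucho, gro, follows m8 after 727 bp. Between malpha and m2 lies Kaz-m1, which encodes a protease inhibitor of the Kazal type and belongs to neither family. Neither of these neighbours was called. The log2 fold change was -0.18 for gro (p = 0.515), and -0.28 for Kaz-m1 (edgeR p = 0.766), in the authors' deposited table. At -0.019 log2 CPM, Kaz-m1 ranked 7729 of 7762 by mean expression.

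The bHLH members spanned a wide range of expression. E(spl)mbeta-HLH, which is expressed broadly in the wing pouch and along the veins, had the highest level of the complex, an estimated 246 CPM per kb in wing discs and 229.8 CPM per kb in haltere discs from the authors' deposited table. In the authors' deposited table its log2 fold change was 0.10 (edgeR p = 0.718), and the implied interval ran from -0.44 to 0.63. Next came E(spl)m3-HLH at an estimated 134 CPM per kb in wing discs and 142 CPM per kb in haltere discs, and the authors' deposited table gave a log2 fold change of -0.08 (edgeR p = 0.796). E(spl)m7-HLH had the smallest difference of the complex. It stood at an estimated 66.0 CPM per kb in wing discs and 66.8 CPM per kb in haltere discs, and the authors' deposited table gave a log2 fold change of -0.02 (edgeR p = 0.96). The implied interval ran from -0.67 to 0.64.

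E(spl)mdelta-HLH, whose enhancer is known from the R4 photoreceptor of the eye, had an estimated 31.0 CPM per kb in wing discs and 37.5 CPM per kb in haltere discs. In the authors' deposited table its log2 fold change was -0.27 (edgeR p = 0.39). The 4 genes mbeta, m3, m7 and mdelta thus all lay within 0.5 of 0. Their implied intervals ran from -0.89 at the lowest end to 0.64 at the highest. Since the implied error is rough, these intervals set no firm bound on the changes. For m7 that error was 0.33, against a median of 0.26 over genes of like expression.

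The remaining bHLH members were expressed at lower levels. E(spl)m8-HLH, a gene of the proneural clusters and the one altered in the dominant allele that gave the complex its name, had an estimated 7.69 CPM in wing discs and 10.7 CPM in haltere discs. The authors' deposited table gave it a log2 fold change of -0.48 (edgeR p = 0.209), and its interval from -1.22 to 0.27 included 0. E(spl)mgamma-HLH, known from the neuroblasts of the central nervous system, had the lowest mean level of the members. It was estimated at 4.49 CPM per kb in wing discs and 9.27 CPM per kb in haltere discs, where m6 was lower. The authors' deposited table gave a log2 fold change of -1.05 (edgeR p = 0.0196, FDR = 0.643), so mgamma was not called. An unadjusted p-value under 0.05 was met by 4.32% of all genes in the authors' deposited table.

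Among the genes expressed within 0.5 log2 CPM of mgamma, the smallest change that passed the FDR in the authors' deposited table was 1.51, larger than the -1.05 of mgamma in size. For the expression of m8 that smallest called change was 1.28 in the authors' deposited table, and for that of m7 it was 0.92. The size of the m8 change, 0.48, was below the smallest one called at its expression.

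**Figure D2:**
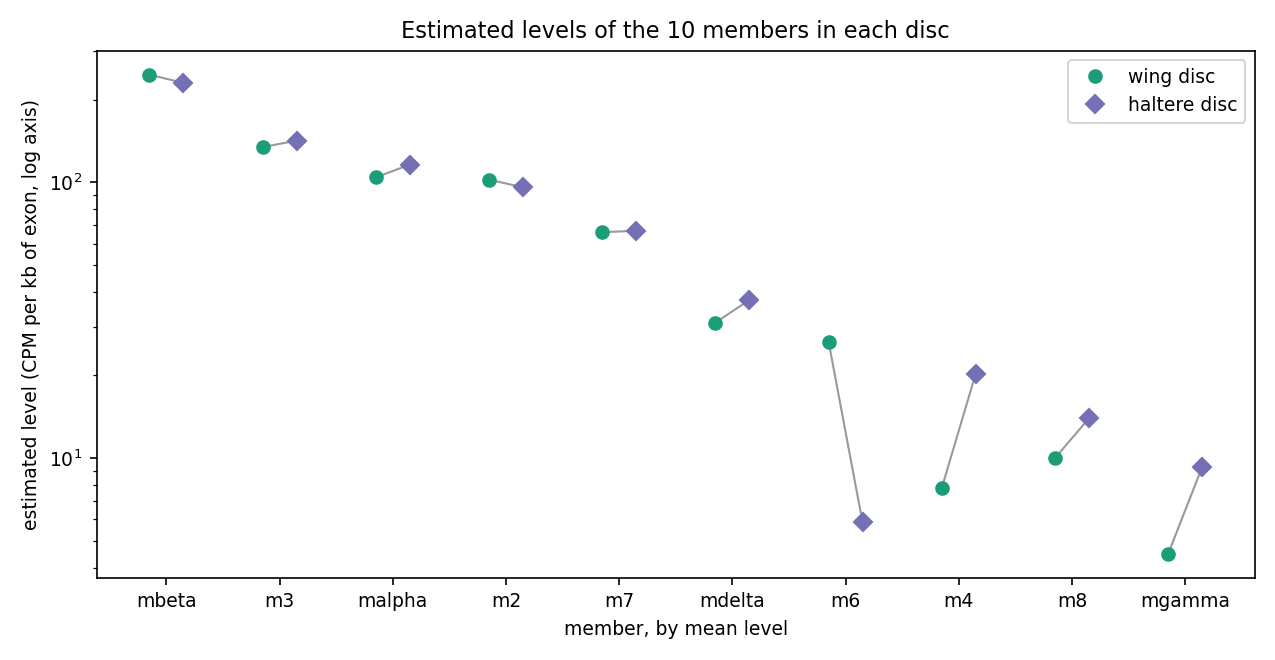
Estimated level of each member in wing discs (circles, left of each pair) and haltere discs (diamonds, right), in CPM per kb of exon on a log axis, ordered by mean level. The lines of the 6 most expressed members are nearly flat, while m6 stands at 26.4 CPM per kb in wing discs and 5.84 CPM per kb in haltere discs and m4 goes the other way.

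The Bearded family members had a wider range of values than the bHLH members. Their log2 fold changes ran from -1.38 for m4 to 2.18 for m6 in the authors' deposited table, a range of 3.56, against 1.14 over the bHLH members. Both of the well expressed Bearded members lay near 0. E(spl)malpha-BFM, expressed in proneural clusters and at the dorsal-ventral boundary, had an estimated 104 CPM per kb in wing discs and 116 CPM per kb in haltere discs, at a log2 fold change of -0.15 in the authors' deposited table (edgeR p = 0.558). E(spl)m2-BFM had an estimated 102 CPM per kb in wing discs and 96.0 CPM per kb in haltere discs, at a log2 fold change of 0.09 in the authors' deposited table (edgeR p = 0.742).

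E(spl)m6-BFM, whose enhancer is used as a reporter of adult muscle precursors, was estimated at 26.4 CPM per kb in wing discs and 5.84 CPM per kb in haltere discs. In wing discs its estimated level lay just below that of mdelta, while in haltere discs it lay below that of every other member. The mean expression was 4.20 log2 CPM and the unadjusted p-value 1.15e-12 (edgeR) in the authors' deposited table. By p-value it ranked 13 and by positive fold change 17 among the 7762 genes. Its implied interval ran from 1.58 to 2.78, above the upper end of the interval of every other member, the highest of which was 0.64 for m2. The implied standard error of 0.31 was the same, to this precision, as the median over genes within 0.5 log2 CPM of it. Because whole discs were measured, fewer cells that express m6 and less m6 RNA per cell cannot be told apart.

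E(spl)m4-BFM, a gene of the proneural clusters whose protein binds Neuralized, had the largest difference in the other direction. It was estimated at 7.79 CPM per kb in wing discs and 20.3 CPM per kb in haltere discs. The authors' deposited table gave a log2 fold change of -1.38 (edgeR p = 0.00349, FDR = 0.184), so m4 was not called. Its implied interval ran from -2.30 to -0.45. Its implied standard error of 0.47 was larger than the median of 0.37 over genes of like expression. The smallest called change among those genes was 1.28 in size in the authors' deposited table, below that of m4.

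**Figure D3:**
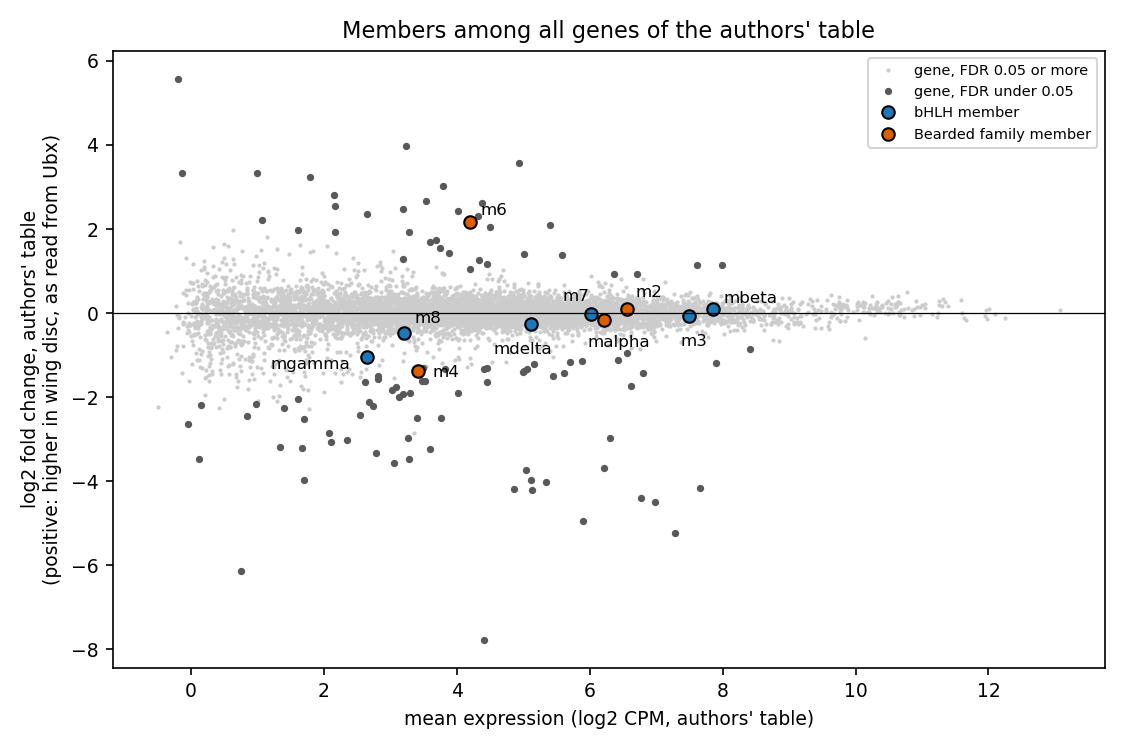
Log2 fold change (wing disc over haltere disc as read from Ubx) against mean expression in log2 CPM for all genes of the authors' deposited table, with called genes in dark grey and the members in colour. The 6 members above the median expression of all genes lie close to 0, between -0.27 and 0.10, while m6, m4, mgamma and m8 lie below that median and farther from 0.

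The members split by expression. The 6 members above the median expression of all genes, 4.39 log2 CPM, lay between -0.27 and 0.10, with a median absolute log2 fold change of 0.10 in the authors' deposited table. All genes above that median had a median absolute change of 0.13. The 4 members below it (m6, m4, m8 and mgamma) had a median absolute change of 1.21, against 0.21 for all genes below it. No test was made of this split, which was chosen after the values were seen. Whether position is related to the values was not tested. Along the chromosome mbeta, malpha, m2 and m3 follow each other, with only Kaz-m1 between them, and the authors' deposited table put them at log2 values of 0.10, -0.15, 0.09 and -0.08. The next gene, m4, lies 693 bp from m3 and was at -1.38 in the authors' deposited table. On the other side of m5, m6 and m7 lie 2990 bp apart and differed by 2.19 on the log2 scale.

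Genes that act upstream of the complex were then set beside it. Of 23 listed genes of the Notch pathway 22 had a row. None was called in either direction by edgeR in the authors' deposited table, where 1.34% of all genes were. None had an unadjusted p-value under 0.05 (edgeR), which 4.32% of all genes had. All 22 lay within 0.5 of 0, against 89.9% of all genes. On a list of 22 genes these counts are near the shares over all genes. The median log2 fold change was -0.06 beside 0.00047 over all genes. The receptor N stood at -0.31 in the authors' deposited table (edgeR p = 0.341), with an implied interval from -0.94 to 0.32. Its ligands Dl and Ser were at 0.17 and 0.15, with p-values of 0.576 and 0.641 (edgeR) in the authors' deposited table. Su(H), the DNA-binding partner of Notch, was at -0.23 (p = 0.483), and H, the antagonist of Su(H), at -0.15 (edgeR p = 0.598), in the authors' deposited table. The lowest value belonged to the coactivator mam at -0.37, and the highest to pen-2, a subunit of the gamma-secretase that cleaves Notch, at 0.37, both in the authors' deposited table. The smallest p-value on the list was 0.134 (edgeR), for the glycosyltransferase gene fng at 0.36 in the authors' deposited table.

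Other targets of Notch in the disc had values of both signs. None of 4 listed genes was called by edgeR in the authors' deposited table, and 2 had an unadjusted p-value under 0.05. Over all genes these shares were 1.34% and 4.32%. The wing selector gene vg was at 0.82 (p = 0.00372, FDR = 0.195), and wg, which encodes the Wingless ligand, at -0.57 (edgeR p = 0.0295, FDR = 0.862), in the authors' deposited table. The homeobox gene ct, a target at the wing margin, was at -0.03, and the bHLH repressor gene dpn at 0.06, in the authors' deposited table. Of 6 listed genes for repressors of the same bHLH class outside the complex, 3 had a row (h, dpn and cwo). None of these was called by edgeR in the authors' deposited table and none had an unadjusted p-value under 0.05, near the shares over all genes. They ran from -0.39 for h to 0.06 for dpn.

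Bearded family genes outside the complex had negative values. Of 6 listed genes 3 had a row, and 1, Ocho, was called as lower in the wing disc, where 0.876% of all genes were. Ocho stood at an estimated 8.06 CPM in wing discs and 20.4 CPM in haltere discs, and at a log2 fold change of -1.34 in the authors' deposited table (edgeR p = 0.000101, FDR = 0.00992). Brd (Bearded), the founding gene of the family, was at -1.13 (edgeR p = 0.02, FDR = 0.654) in the authors' deposited table, and Tom at -0.23 (p = 0.385). Under a Bonferroni adjustment Ocho was no longer called, with an adjusted p-value of 0.784. The values of Ocho and Brd lay close to those of m4 and mgamma, and that of Tom to that of malpha. The implied intervals are wide, from -2.08 to -0.18 for Brd and from -2.30 to -0.45 for m4. With 1 comparison, likeness between genes cannot be measured.

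Proneural genes, whose activity the bHLH members hold down, and genes that work with them were compared next. Of 9 listed genes 6 had a row, all with a negative value. None was called by edgeR or had an unadjusted p-value under 0.05 in the authors' deposited table. On a list of 6 genes both counts are near the shares over all genes, 1.34% and 4.32%. The median log2 fold change of the 6 was -0.29 beside 0.00047 over all genes. The lowest was the proneural gene ac at -0.60 (p = 0.0674), and the highest emc, an antagonist of proneural proteins, at -0.14 (edgeR p = 0.604), in the authors' deposited table. Of 8 listed genes of sense organ precursors and neurons 6 had a row, with a summed level of 77.1 CPM in wing discs and 82.5 CPM in haltere discs estimated from the authors' deposited table. These ran from -0.79 for phyl to 0.08 for elav, and 5 of the 6 were negative. EdgeR called none of them in the authors' deposited table, nor was any unadjusted p-value under 0.05. Both of the latter counts are again near the shares over all genes. Whether the number of sense organ precursors bears on the negative values of m4, mgamma and m8 was not tested.

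Genes of the adult muscle precursors had values of the same sign as E(spl)m6-BFM. All 6 listed markers had a row and a positive value, with a median log2 fold change of 1.19 in the authors' deposited table beside 0.00047 over all genes. Of the 6, 2 were called as higher in the wing disc, where 0.464% of all genes were. Him, an inhibitor of muscle differentiation kept on in these precursors, was at 2.55 (edgeR FDR = 0.000119), and the mesodermal bHLH gene twi at 1.93 (edgeR FDR = 0.00501), in the authors' deposited table. The FGF receptor gene htl stood at 1.44 (p = 0.00609, FDR = 0.278), and its adaptor gene stumps at 0.94 (edgeR p = 0.00434, FDR = 0.223), in the authors' deposited table. Mef2 and zfh1 were at 0.22 and 0.51, with p-values of 0.488 and 0.251 (edgeR). Summed over the list, the level estimated from the authors' deposited table was 76.9 CPM in wing discs and 46.1 CPM in haltere discs. Mef2 held the largest part of both sums, 30.7 CPM in wing discs and 26.4 CPM in haltere discs. The m6 value of 2.18 lay between those of twi and Him, and the implied intervals of all 3 overlapped. The implied intervals of Mef2 (-0.40 to 0.84) and zfh1 (-0.36 to 1.38) lay wholly below that of m6 (1.58 to 2.78). Those of htl and stumps overlapped it, for stumps only at its upper end of 1.58. The part of muscle precursors in the m6 difference was not tested.

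**Figure D4:**
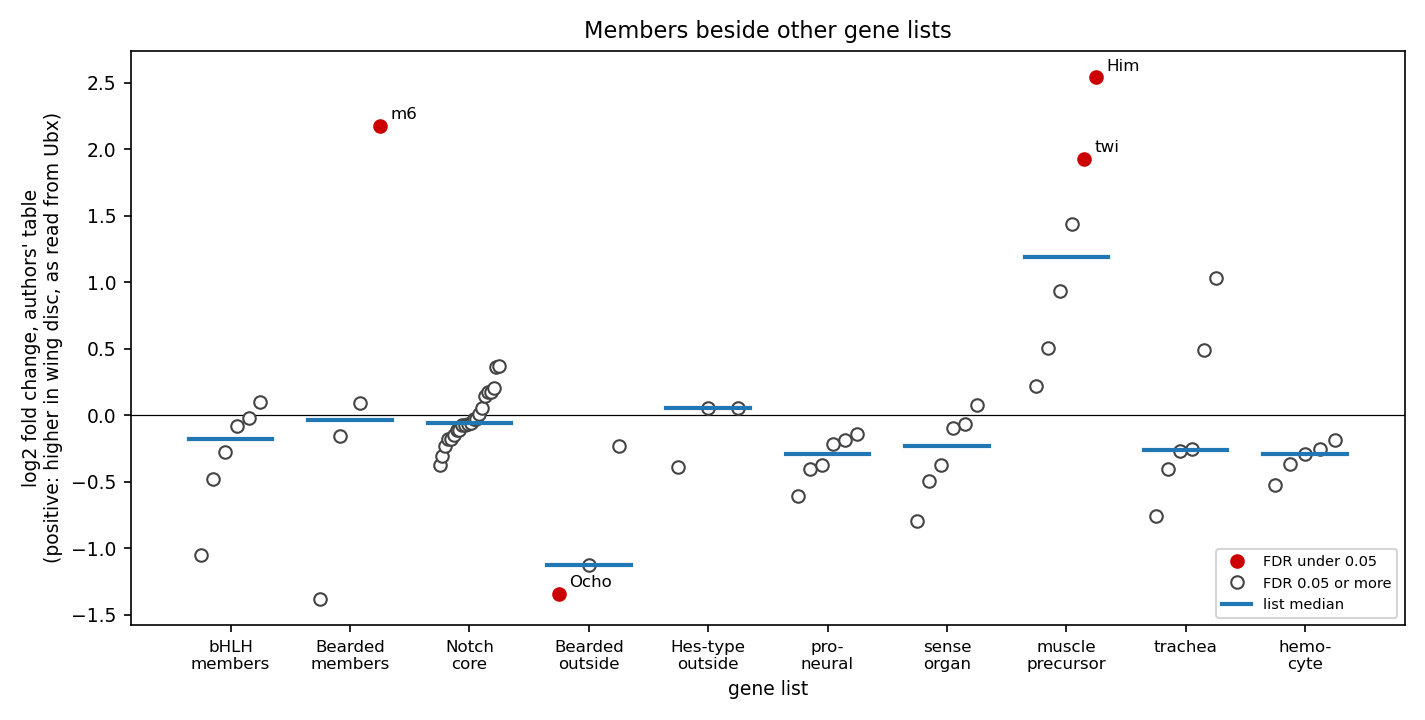
Log2 fold change (wing disc over haltere disc as read from Ubx) of single genes by list, with filled red points for genes called at an FDR under 0.05 and a bar at each list's median. The member m6 at 2.18 lies between twi and Him, the 2 called muscle precursor genes. The 4 other muscle precursor genes were not called and reach down to 0.22. The 22 Notch pathway genes lie between -0.37 and 0.37, and Ocho at -1.34 is the called Bearded family gene outside the complex.

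Tracheal and hemocyte markers had no called gene by edgeR in the authors' deposited table, and 1 of them, trh, had an unadjusted p-value under 0.05. Over all genes 1.34% were called and 4.32% had such a p-value. For trachea, whose branches attach to the disc, 6 of 6 listed genes had a row and ran from -0.76 for btl to 1.03 for trh in the authors' deposited table (for trh, edgeR p = 0.00128, FDR = 0.0859). Summed tracheal levels estimated from the same table were 629 CPM in wing discs and 659 CPM in haltere discs. Of these sums trh held 34.7 CPM in wing discs and 17.0 CPM in haltere discs. The share of btl was 5.24 CPM in wing discs and 8.86 CPM in haltere discs. The sums thus mostly reflect other genes of the list. For hemocytes, the larval blood cells, all 5 listed genes were negative, from -0.52 for Pxn to -0.18 for crq in the authors' deposited table, and none had an unadjusted p-value under 0.05 (edgeR). Their summed level was an estimated 77.7 CPM in wing discs and 100.1 CPM in haltere discs. The part of these cells in the values of the members was not tested.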

How the data were processed

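Per the submitters' processing notes, the reads were handled with HISAT2, HTSeq and edgeR on build dm6. Their versions, the annotation, the strand setting, the filter on low counts and the edgeR test are not given in the sources used here. Per the file headers, the authors deposited a log2 fold change, a mean log2 CPM, a p-value and an FDR for each of 7767 rows. Of these, 5 rows are summary lines of the read counter. They were left out of gene counts, but they took 43.3% of the summed CPM, so a gene's CPM is relative to a total that includes them. Benjamini-Hochberg values recomputed over all rows matched the deposited FDR to within 6.24e-06; p-values above 0.5 made up 64.7% of the genes' values.

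No test across samples was run, because the table holds none of their values, and 0 columns of per-sample values were left aside. The planned fit on counts was replaced by the authors' FDR, called under 0.05. Estimated tissue levels, exon lengths, implied standard errors (log2 change over the normal z that its p-value stands for) and counts were computed with Python 3.11.15, pandas 2.3.3 and scipy 1.17.1. The adjustment and the implied error were tested on simulated data. List genes were matched by symbol or a RefSeq synonym held by 1 gene (assembly Release 6 plus ISO1 MT). Genes were named by a rule: every member, listed genes with an FDR or p-value under 0.05, N, Dl, Ser, Su(H), H, gro and Ubx, and each list's lowest and highest gene. Outside it ct, cwo, zfh1 and fng were named after their values were seen. Fat body, salivary gland and disc identity genes are given as sums and counts, with Ubx and Antp named. The members and lists were chosen with earlier results of these data known. Promoter and protein sequences were not used here.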

Additional observations from a re-analysis of the deposited data

How the results depend on the processing

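The count of 1 called member was the same at an FDR under 0.01, an FDR under 0.1, a Bonferroni adjustment, with the summary lines left out, with a minimum mean expression of 1 log2 CPM and with a minimum log2 change of 1. It was 3 at an unadjusted p-value under 0.05, where m4 and mgamma joined m6 and 4.32% of all genes passed. The adjusted p-value of E(spl)m6-BFM lay between 6.84e-10 and 8.93e-09 under every adjustment run. The median member log2 fold change was -0.11 as a mean, -0.18 over bHLH members and -0.03 over Bearded family members. Each moved by less than the median implied standard error. That error belongs to a single gene, so staying under it does not show that the median is stable. The count of 0 called Notch pathway genes held under all 7 alternatives. Among all genes 1.34% were called at the main FDR threshold. The alternatives for the other lists were added after the data were seen. Under a Bonferroni adjustment the called genes numbered 0 for Bearded genes outside the complex, 1 for muscle precursor markers and 0 for salivary gland markers. At an unadjusted p-value under 0.05 they numbered 2 for other Notch targets, 2 for Bearded genes outside the complex, 4 for muscle precursor markers, 1 for tracheal markers and 4 for disc identity genes. An FDR under 0.1 gave 1 tracheal gene. These changes follow from the threshold alone.

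No paired analysis was possible because the table holds no values per sample. For the same reason the fits without each replicate and the DESeq2 test were not run, so whether 1 library drives the m6 call is not known. Every alternative reuses the deposited p-values and leaves the fold changes as they are. The depth is unknown.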
